A study of Arabidopsis thaliana with 35 samples.

Results

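The transcriptome of Arabidopsis thaliana seedlings after 10 d of cold was compared with that after 1 d of cold, over every nuclear gene of the deposited RNA table, that is, every gene whose identifier is not one of the chloroplast or mitochondrial genome. There were 18622 such genes among the 18779 genes listed, and 18619 of them could be tested. The plants were of the accession Col-0 carrying a functional FRI allele, which makes flowering depend on a long cold period (vernalization), and all groups share that genotype. Standard growth was at 22 °C with 16 h of light from white fluorescent lamps and 8 h of dark. Each of the 7 RNA groups of the series has 2 libraries: plants without cold, plants taken from the cold after 1 h, after 1 d, after 10 d, after 20 d or after 40 d, and plants given 10 d back at the standard conditions once the 40 d had passed. The 4 libraries of the 1 d and 10 d groups carry the comparison, among 14 RNA samples and 35 samples of the series in all. The temperature and light during the cold, the age of the plants, the hour of harvest and any pooling of plants are not given in the sources used here. Plants with 10 d of cold may also be older than those with 1 d, so duration of cold and age cannot be told apart.

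Cold acts on a plant on several time scales. Within hours, CBF transcription factors switch on a set of cold-regulated genes whose products, among them dehydrins and small hydrophilic proteins, protect membranes and proteins. Over days, growth slows, sugars build up because their use falls faster than their production, and leaves adjust photosynthesis and pigments to light that can be used less well. Over weeks, the floral repressor gene FLC is silenced through VIN3 and Polycomb proteins, the step on which vernalization rests. The passage from 1 d to 10 d of cold lies between the first response and the silencing of FLC.

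Expression was measured by stranded sequencing of total RNA depleted of ribosomal RNA, without selection for poly(A) tails. A value is the authors' normalised count, which is comparable between samples for a gene but not between genes of different length. The deposited columns are averages of 2 libraries, and each was resolved into the whole reads of a deeper and a shallower library. The deeper and shallower libraries held 16.89 M and 15.45 M reads on genes (M, reads divided by 1000000) after 1 d, and 16.71 M and 16.63 M after 10 d. Organelle genes took 18.2% and 19.4% of these reads after 1 d, and 22.5% and 23.2% after 10 d. Across genes, log values of libraries of the same group correlated at 0.992 in both groups, and those of different groups at 0.932 to 0.934, as a description over genes that are not independent. The mean dispersion between libraries was trimmed of its extreme values and taken over genes above a minimum of reads. It was 0.00728 for 1 d and 0.00658 for 10 d, against 0.0616 without cold, 0.104 for 1 h and 0.0488 after the return. Nothing in the labels says whether the libraries of a group came from separate cultures, so p-values measure only the spread between libraries. In the fit of all 14 libraries that spread is pooled over all groups. It thus includes the more variable groups without cold, after 1 h and after the return. In seedlings taken whole or in part, fewer cells of a type and less RNA per cell cannot be told apart.

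After 10 d the levels of 1377 genes, 7.40% of those tested, were higher than after 1 d, and 2086 genes, 11.2%, were lower, 18.6% in either direction (limma across all 14 RNA libraries, Benjamini-Hochberg adjusted p under 0.05). "Rose" and "fell" refer to these calls throughout. The genes that fell did so by more: their median log2 change was 1.26 in size and 436 of them changed at least 4-fold, against 1.01 and 116 genes among those that rose. At least 8-fold changes numbered 164 among the falls and 34 among the rises. The median change over all tested genes was 0.01 on the log2 scale. Every called gene had its 2 libraries of one group entirely above those of the other, as did 13771 genes, 74.0% of those tested.

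Without a test, 455 genes (2.44% of 18622) were at least 2-fold higher between the deposited means and 1082 (5.81%) at least 2-fold lower.

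The number of calls depends on the estimate of spread, which all 7 groups share in the fit of 14 libraries. In a fit of the 4 libraries alone, 4314 genes (23.2%) were higher and 4768 (25.6%) lower, and these included all 1377 rises and all 2086 falls of the larger fit. With organelle genes and the rRNA-like gene AT2G01021 left out of the totals, the split became 1636 rises and 1605 falls, and the rises made up 50.5% of calls in place of 39.8%. When any 1 of the 4 libraries was left out, 345 to 425 genes rose and 740 to 1007 fell. A call that persisted in each of these 4 fits, 247 of the rises and 644 of the falls, is described below as holding. Shares of a gene list are given beside its counts. They can be set beside 7.40% rises and 11.2% falls among all tested genes, or 23.2% and 25.6% in the 4-library fit. The lists were chosen with earlier results of these data known. Their shares therefore describe these data and are no independent support for a change in a list. For each gene whose call did not hold and whose p-values are given, the range over those 4 fits is printed.

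**Figure D1:**
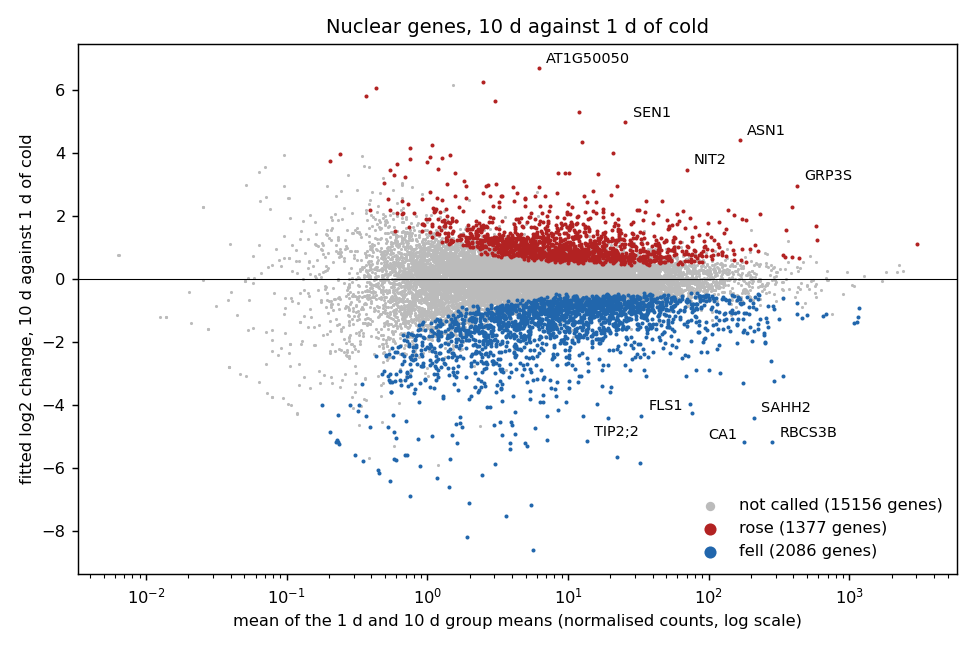
Fitted log2 change from 1 d to 10 d of cold (vertical axis) against the mean of the 2 group means in normalised counts (horizontal, log scale) for the tested nuclear genes, coloured by call. The 2086 genes that fell reach farther from 0 than the 1377 that rose, and CA1 lies at a log2 change of -5.20.

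The largest rises that held, among genes with at least 10 normalised counts in the higher group, included genes known from sugar-starved and ageing leaves. SEN1 (AT4G35770), a senescence and dark-induced gene, was at 1.55 and 1.58 after 1 d (deeper, then shallower library, here and below) and at 54.6 and 44.7 after 10 d, a log2 change of 4.97 ± 0.69 (SE, adjusted p = 0.000557). ASN1 (AT3G47340), the dark-induced asparagine synthetase that stores nitrogen in asparagine when carbon is short, was at 16 and 14.3 and then at 321 and 316. Its log2 change was 4.39 ± 0.86 (adjusted p = 0.00441). Both genes lay far apart between the groups, with libraries of a group close together.

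NIT2 (AT3G44300), a nitrilase with close copies beside it in the genome, went from 10.8 and 12.4 to 129 and 126 (log2 change 3.46 ± 0.32). GAT1_2.1 (AT1G15040), a gene of the glutamine amidotransferase class that is repressed by nitrogen supply, went from 1.78 and 1.22 to 17.5 and 13.4 (3.36 ± 0.40). GRP3S (AT2G05380), a glycine-rich protein gene, went from 106 and 86.8 to 789 and 708 (2.96 ± 0.42). MES10, of the methyl esterase family, and EXT4, an extensin of the cell wall, rose by 3.38 and 2.96 on the log2 scale. The other 5 of the 12 are named by identifier: AT1G50050 rose from 4 and 4 reads to 529 and 432 (log2 change 6.69), AT4G39675 by 5.29, AT3G48390 by 4.34, AT1G19530 by 4.00 and AT4G27450 by 3.33.

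Chosen by the same rule, the 12 largest falls that held included 3 genes of carbon fixation. CA1 (AT3G01500), the main carbonic anhydrase of the chloroplast, was at 339 and 356 after 1 d and at 9.78 and 9.18 after 10 d, a log2 change of -5.20 ± 0.30 (adjusted p = 1.5e-06). RBCS3B (AT5G38410) and RBCS2B (AT5G38420), neighbouring genes for the Rubisco small subunit, went from 559 and 544 to 14.7 and 15.5 (-5.19 ± 0.28) and from 147 and 140 to 7.67 and 7.48 (-4.24 ± 0.20). The 4 RBCS genes are near-identical copies, and how reads matching several copies were counted is not given in the sources used here, so the share of each copy is uncertain. SAHH2 (AT3G23810), an S-adenosylhomocysteine hydrolase of the methyl cycle, fell from 388 and 417 to 16.6 and 21.7 (-4.41 ± 0.23).

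TIP2;2 (AT4G17340), a water channel of the vacuole membrane, fell from 26.9 and 26.1 to 1.27 and 0.412 (-5.16 ± 0.39). FLS1 (AT5G08640), the flavonol synthase, fell from 65.1 and 61.5 to 3.15 and 3.07 (-4.34 ± 0.32). CYP705A5 (AT5G47990), a cytochrome P450 of the thalianol pathway, and XTH19 (AT4G30290), a xyloglucan-modifying enzyme, fell by 4.42 and 4.36 on the log2 scale. AT5G37990 fell by 5.86, AT5G26260 by 5.65, AT5G38020 by 5.12 and AT1G06000 by 4.34. Larger fitted falls that did not meet the rule exist, down to a log2 change of -8.61.

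**Figure D2:**
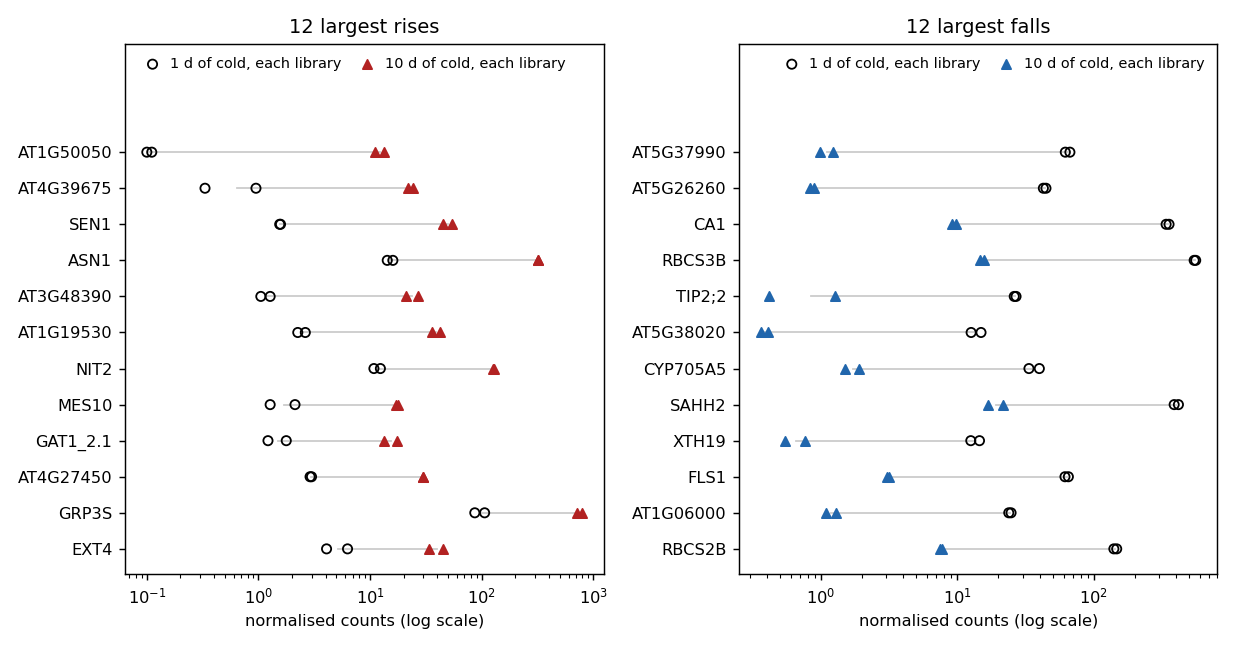
Normalised counts (log scale) in each library of the 1 d and 10 d groups for the 12 largest rises and the 12 largest falls among genes whose calls held and that reached 10 normalised counts. The libraries of a group lie close together for nearly every gene, and TIP2;2 shows the widest spread after 10 d, at 1.27 and 0.412.

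Of 11 chosen genes induced by sugar starvation and by the dark, 10 rose (90.9%) and 0 fell, with a median log2 change of 1.73. The list held SEN1, ASN1, BCAT2, BGLU30, DIN4, DIN9, DIN10 and the class II trehalose-phosphate synthase genes TPS8 to TPS11. It did not cover all DIN genes or all class II genes. TPS8 went from 26.2 and 27.4 to 96.7 and 96.4 (1.85 ± 0.17, adjusted p = 4.29e-05) and TPS11 from 26.6 and 29.1 to 93.9 and 90.5 (1.73 ± 0.17). TPS9 rose by 1.32, DIN10 (a raffinose synthase family gene) by 1.32 from 33.8 and 31.4 to 78.1 and 84.3, and BGLU30 (a beta-glucosidase) by 1.53. With SEN1 and ASN1 these are the 7 whose calls held. TPS10 rose by 0.74 (adjusted p = 0.0129; 0.0662 to 0.103 with 1 library left out), DIN4 by 1.80 (0.025; 0.0969 to 0.128) and BCAT2 by 3.35 (0.0265; 0.0844 to 0.157). DIN9 was at 1.45 and 1.94 and then at 1.40 and 1.39, not called (adjusted p = 0.782).

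The rise to 10 d was set within a time course that moved in both directions. The deposited mean of DIN10 was 622 without cold, 32.6 after 1 d, 81.2 after 10 d, 12.7 after 20 d, 6.32 after 40 d and 431 after the return. That of ASN1 was 659, 15.1, 318, 89, 54 and 220 at the same times, and that of SEN1 was 21.7, 1.56, 49.7, 10.2, 7.57 and 25. In all 3 genes the 10 d mean lay above those of both 1 d and 20 d. TPS8 stood at 113 without cold, 26.8 after 1 d, 96.5 after 10 d and 46 after 20 d. No test was made between these other times.

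Of 7 genes of nitrate transport, nitrate reduction and ammonium assimilation (GLN2) 5 fell (71.4%) and 0 rose, all 5 held, and the median log2 change was -1.43. NRT2.1, the main high-affinity nitrate transporter of roots, went from 18.8 and 18 to 1.75 and 2.09 (-3.26 ± 0.29, adjusted p = 3.59e-05). NIR1, nitrite reductase, went from 115 and 133 to 16.1 and 13.4 (-3.07 ± 0.17, 1.5e-06), and NIA1, a nitrate reductase, from 237 and 274 to 65.2 and 59.3 (-2.03 ± 0.31). The dual-affinity transporter NRT1.1 fell by 1.43 from 157 and 170 to 60.5 and 60.4, and GLN2, the chloroplast glutamine synthetase, by 1.13 from 263 and 266 to 118 and 124. The other nitrate reductase gene, NIA2, was at 658 and 744 and then at 695 and 676 (log2 change -0.03 ± 0.18, adjusted p = 0.928); the difference between NIA1 and NIA2 was not itself tested. NRT1.5, which loads nitrate into the xylem, was at 35.6 and 39.2 and then 24.2 and 25.5 (adjusted p = 0.171). The 1 d means of NRT2.1, NIR1 and NIA1 (18.4, 124 and 255) were above those without cold (3.61, 88.7 and 62.5).

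Of all 15 carbon fixation genes measured, 6 fell (40.0%) and 0 rose, with a median log2 change of -0.56. Without CA1, RBCS3B and RBCS2B, 3 of the remaining 12 fell (25.0%), 1 of these held, and the median was -0.29. CA4, a carbonic anhydrase outside the chloroplast, fell from 30.4 and 27.9 to 10.8 and 14.1 (-1.24 ± 0.18). RCA, the Rubisco activase, fell by 0.76 from 541 and 530 to 326 and 308 (adjusted p = 0.0217; 0.102 to 0.136 with 1 library left out), and PRK, phosphoribulokinase, by 0.56 (0.0219; 0.0825 to 0.168). The other RBCS genes were not called: RBCS1B was at 112 and 86.3 and then 65 and 64.3 (adjusted p = 0.0769), and RBCS1A at 2032 and 1972 and then 2411 and 2258 (log2 change 0.22, adjusted p = 0.6). In the 4-library fit 3 genes of the list were higher (20.0%) and 11 lower (73.3%).

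**Figure D3:**
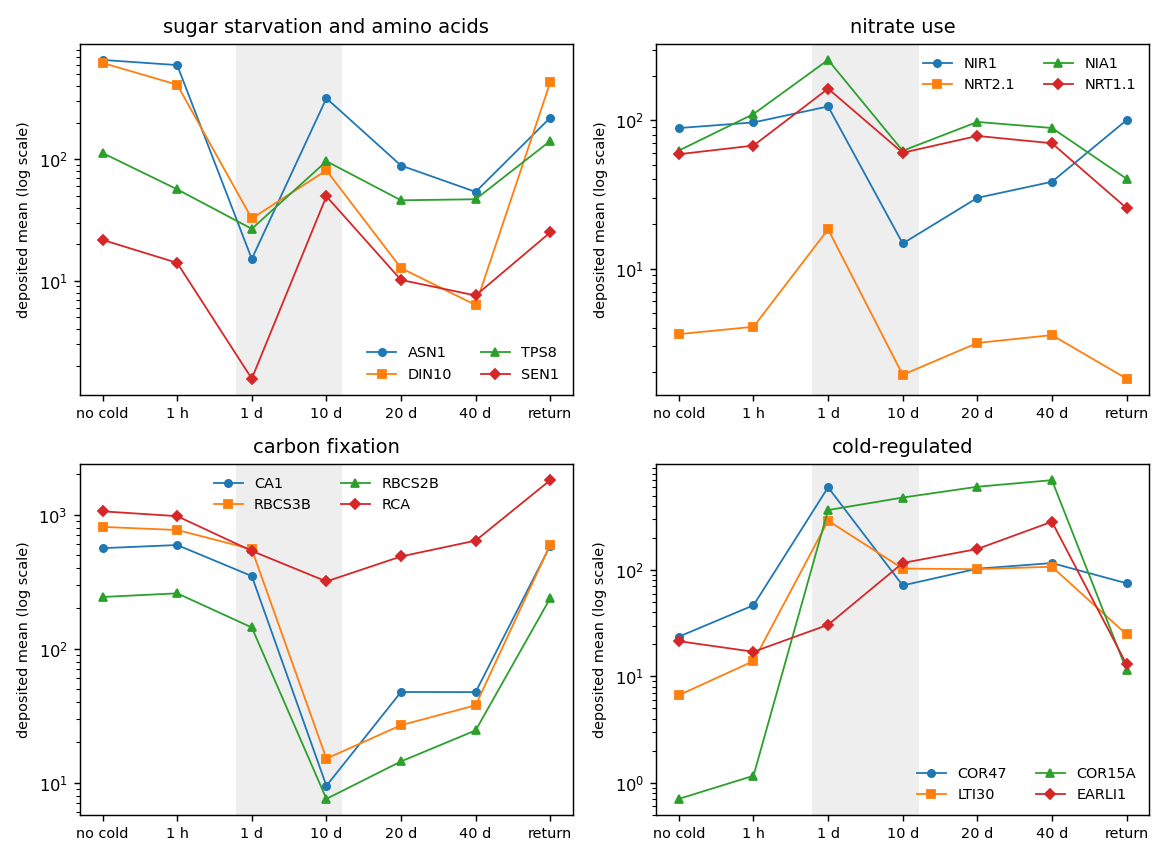
Deposited means (authors' averages of 2 libraries, log scale) of 16 genes over the 7 groups in the order of the labels, with even spacing that is not to time scale; the grey band marks the 1 d and 10 d groups compared here. ASN1, DIN10, TPS8 and SEN1 are higher at 10 d than at 1 d and at 20 d, whereas CA1, RBCS3B and RBCS2B drop between 1 d and 10 d and stay below their 1 d means until 40 d.

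Among nuclear genes of the light-harvesting antenna and the photosystems, 10 of 44 measured fell (22.7%) and 1 rose (2.27%), with a median log2 change of -0.37. In the 4-library fit 29 were lower (65.9%) and 6 higher (13.6%). PSBS, which dissipates excess light, fell from 338 and 339 to 114 and 112 (-1.58 ± 0.26, adjusted p = 0.00152), and the photosystem subunit genes PSAK (-1.07) and PSBP-1 (-0.86) fell; these 3 held. PSAH2 fell by 0.89 from 97.5 and 102 to 52.4 and 54.9 (adjusted p = 0.00549; 0.0425 to 0.058 with 1 library left out). The 1 rise was LHCB1.1, an antenna protein of photosystem II, from 2047 and 1840 to 4159 and 4168 (1.1 ± 0.31, adjusted p = 0.0273; 0.106 to 0.161 with 1 library left out). Its near-identical neighbour AT1G29930 could not be resolved into libraries, and its deposited mean was 3967.8 after 1 d and 7579.8 after 10 d, while LHCB1.2 was at 1778 and 1699 and then at 1629 and 1686. Reads of these copies may have been divided in ways not given in the sources used here.

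Chlorophyll and early light-induced genes moved both ways, 4 rises (21.1%) and 3 falls (15.8%) among 19, with a median of 0.06. ELIP1, an early light-induced protein of the thylakoid, fell from 92.2 and 98.5 to 20.7 and 21.4 (-2.18 ± 0.20, adjusted p = 4.29e-05), and its 1 d mean of 95.4 was above the 5.65 found without cold. ELIP2 fell by 1.62 (adjusted p = 0.00656; 0.0444 to 0.0671 with 1 library left out). PORB, a protochlorophyllide reductase, rose from 123 and 114 to 228 and 231 (0.96 ± 0.14). PORA, its counterpart in dark-grown seedlings, rose from 0.2 and 0.111 to 2.01 and 2.73 (3.84 ± 0.75, adjusted p = 0.0043; 0.0144 to 0.0539). CHLD and CHLM, of magnesium insertion and methylation, rose by 0.60 and 0.53 and PCB2, of vinyl reduction, fell by 1.05, and none of these 3 held. Of 8 photorespiration genes 1 rose (12.5%) and 0 fell: AT1G80380 went from 46.3 and 47.9 to 120 and 126 (1.38 ± 0.25, held). The median of those 8 genes was -0.25.

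Of 16 flavonoid genes measured, 10 fell (62.5%), 0 rose and 6 were not called, with a median log2 change of -2.08, and 6 held. CHS, chalcone synthase, the entry step, went from 316 and 326 to 32.2 and 32.2 (-3.32 ± 0.34, adjusted p = 8.51e-05), and CHI, the next enzyme, from 37.8 and 35.5 to 8.53 and 7.19 (-2.22 ± 0.20). F3'H, which hydroxylates the B ring, fell from 19.1 and 17.1 to 1.09 and 1.31 (-3.90 ± 0.48), and 4CL3, a coumarate ligase, from 6.55 and 6.15 to 0.457 and 0.387 (-3.88 ± 0.53). Upstream in the phenylpropanoid pathway, PAL1 fell from 372 and 392 to 107 and 116 (-1.78 ± 0.34), while PAL2 (-1.1; adjusted p = 0.0381, 0.157 to 0.17 with 1 library left out) and C4H (-0.65; 0.0104, 0.0775 to 0.0838) fell without holding. The regulator MYB12 fell by 1.94 from 2.7 and 3.6 to 0.686 and 0.928 (0.00341; 0.00993 to 0.0547). LDOX, of the anthocyanin branch, had 18 and 16 reads after 1 d and 0 in both libraries after 10 d, at least 5.82-fold lower against a floor of 3 reads per library (adjusted p = 0.0131; 0.047 to 0.104). The uncalled members were the later enzymes DFR (adjusted p = 0.103), UF3GT (0.801) and 5MAT (0.106), the transferase TT19 (0.38), and the regulators PAP1 (log2 change 0.69, adjusted p = 0.691) and TT8 (1.03, 0.392). All 6 stood below 2 normalised counts in every library. The deposited mean of CHS was 283 without cold, 48.1 after 20 d, 43.2 after 40 d and 293 after the return.

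Of 18 glucosinolate genes, which make the mustard-oil precursors, 8 fell (44.4%), 1 rose (5.56%) and 9 were not called, with a median of -1.18. Only MYB34, a regulator of the tryptophan-derived branch, held among them, falling from 10 and 9.69 to 3.05 and 2.22 (-1.92 ± 0.31, adjusted p = 0.0015). Without 1 library, 1 to 4 of the 18 fell and 0 rose. AT2G31790 fell by 1.3 from 4.2 and 4.4 to 1.85 and 1.62 (adjusted p = 0.0058; 0.034 to 0.0659), SOT16, a sulfotransferase of the core pathway, by 1.31 (0.00874; 0.0358 to 0.0744) and CYP83A1, of the methionine-derived branch, by 1.57 (0.0104; 0.049 to 0.0869). MYB51, another regulator of the tryptophan-derived branch, rose by 0.84 from 2.45 and 3.05 to 4.37 and 5.46 (0.0327; 0.0687 to 0.23).

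**Figure D4:**
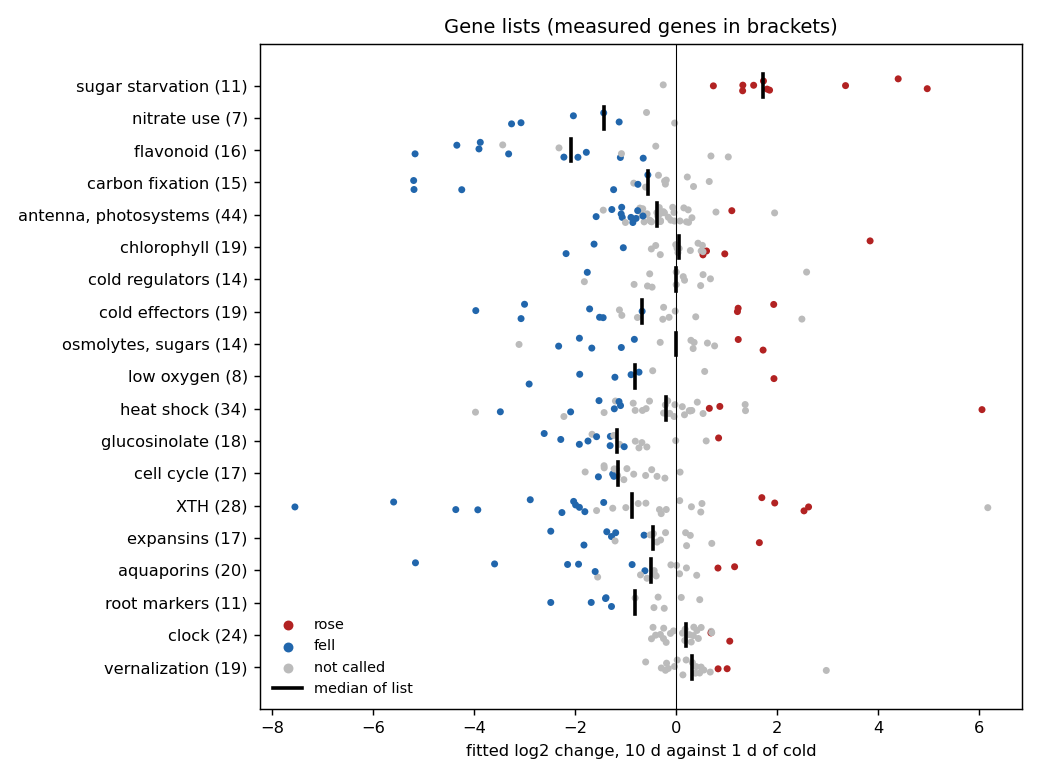
Fitted log2 change from 1 d to 10 d of cold for each measured gene of 19 lists, coloured by call, with the list median as a black bar; positions within a line are spread at random for visibility. The sugar starvation list lies to the right with a median of 1.73 and the flavonoid and nitrate lists to the left with medians of -2.08 and -1.43, while the clock and vernalization lists lie near 0 with 2 called genes each.

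Of the regulators of the first cold response, CBF3 alone of 14 measured was called (7.14% falls). CBF3 fell from 17.1 and 19.9 to 5.61 and 5.29 (-1.76 ± 0.50, adjusted p = 0.0282; 0.099 to 0.153 with 1 library left out). CBF2 was at 35.4 and 48.8 and then at 31.3 and 26.7 (log2 change -0.52 ± 0.86, adjusted p = 0.709), and CBF1 at 2.23 and 3.43 and then at 2.03 and 1.91. The median of the list was 0.00. In the 4-library fit 2 of these genes were higher (14.3%) and 5 lower (35.7%). The 10 d mean of CBF2, 29, stood above the 0.593 found without cold, and its mean after 40 d was 9.05.

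The cold-regulated effector genes divided. Of 19 measured, 7 fell (36.8%) and 3 rose (15.8%), with a median of -0.67, and 7 of these calls held. Among the dehydrin genes, 4 fell: COR47 from 556 and 641 to 79.4 and 63.7 (-3.07 ± 0.18, adjusted p = 1.69e-06), ERD10 from 190 and 240 to 30.1 and 23.7 (-3.00 ± 0.23) and LTI30 from 276 and 305 to 121 and 85 (-1.52 ± 0.25) held, and ERD14 fell by 0.67 without holding (0.0415; 0.0881 to 0.269 with 1 library left out). The dehydrin gene RAB18 lay the other way, at 0.65 and 0.526 and then at 3.48 and 3.25, a log2 change of 2.49 ± 1.43 that was not called across 14 libraries (adjusted p = 0.247) and was called in the 4-library fit (8.17e-06). The small membrane protein genes RCI2B and RCI2A fell, RCI2B from 28.3 and 31.7 to 1.93 and 1.88 (-3.97 ± 0.37) and RCI2A from 369 and 384 to 120 and 110 (-1.71 ± 0.32). RD29A, a hydrophilic protein gene used as a reporter of the response, fell by 1.45 (adjusted p = 0.00805; 0.0403 to 0.0994 with 1 library left out). EARLI1, a lipid transfer-like protein gene, went the other way, from 31.6 and 29.4 to 115 and 118 (1.93 ± 0.20, adjusted p = 7.49e-05), as did COR27, a clock-linked cold gene, from 28.1 and 31.5 to 73.8 and 65.6 (1.23 ± 0.23).

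COR15A and KIN1 had 10 d values above those of 1 d. COR15A, a chloroplast protein that protects membranes during freezing, was at 369 and 362 after 1 d and at 514 and 445 after 10 d, a log2 change of 0.39 ± 0.23 that was not called across 14 libraries (adjusted p = 0.261) and was called in the 4-library fit (1.88e-05). KIN1 rose from 47.6 and 43.9 to 118 and 95.2 (1.21 ± 0.25, adjusted p = 0.00635; 0.0357 to 0.0837 with 1 library left out), whereas its tandem copy KIN2 was at 613 and 609 and then at 384 and 336 (adjusted p = 0.438). COR15B lay the other way from COR15A, at 124 and 122 and then at 110 and 95.4 (log2 change -0.26 ± 0.24). It was not called across 14 libraries (adjusted p = 0.475) and was called lower in the 4-library fit (0.00463). The pairs COR15A with COR15B and KIN1 with KIN2 are close copies whose reads could be divided by the counting. The deposited means of COR15A were 0.705 without cold, 366 after 1 d, 479 after 10 d, 606 after 20 d and 699 after 40 d, while those of COR47 were 23.6, 599, 71.5, 103 and 116. COR47 was thus highest at 1 d among these means, and COR15A at 40 d.

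Genes for compatible solutes and sugar transport moved in both directions, 5 falls (35.7%) and 2 rises (14.3%) among 14 with a median of -0.01. GOLS3, the galactinol synthase of the cold response, fell from 123 and 170 to 30.3 and 27.5 (-2.33 ± 0.20, adjusted p = 1.99e-05), and the raffinose synthase gene RS5 from 206 and 222 to 62.9 and 71.9 (-1.67 ± 0.26). SPS4F, a sucrose phosphate synthase, fell by 1.92 and SUS1, a sucrose synthase, by 1.08. P5CS1, the rate-limiting enzyme of proline synthesis, rose from 25.5 and 25.1 to 90.4 and 77 (1.72 ± 0.21, adjusted p = 0.000221). The sucrose exporter genes SWEET12 and SWEET11 were called in opposite directions: SWEET12 rose from 13.1 and 13.3 to 30.8 and 31.2 (1.23 ± 0.20), and SWEET11 fell by 0.83 (adjusted p = 0.00794; 0.0364 to 0.0926). Of 12 starch breakdown genes 3 fell (25.0%) and 0 rose, with a median of -0.01. BAM3, the main chloroplast beta-amylase, fell from 257 and 314 to 92.2 and 81.1 (-1.72 ± 0.22) and held, whereas AMY3 (-0.90; 0.0602 to 0.0697 with 1 library left out) and DPE2 (-0.53; 0.133 to 0.243) fell without holding.

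Of 10 genes for membrane lipid desaturation and remodelling 2 fell (20.0%) and 0 rose, with a median of -0.14. ADS2, an acyl-lipid desaturase needed for cold tolerance, fell from 172 and 178 to 85.3 and 75.6 (-1.13 ± 0.27, adjusted p = 0.0125; 0.0639 to 0.0996 with 1 library left out), and ADS1 from 1.85 and 1.80 to 0.33 and 0.206 (-2.75 ± 0.61; 0.0353 to 0.0927). None of the 5 RNA-binding genes of the cold response was called across 14 libraries, where 0 were higher and 2 lower at an unadjusted p under 0.05. The trend fit on log2 values also called 0, and the 4-library fit called 4 lower. GRP7, a glycine-rich RNA chaperone, was at 168 and 177 and then at 96.4 and 115, and GRP8 at 11.9 and 12.7 and then at 4.27 and 4.23 (log2 change -1.53 ± 0.64, adjusted p = 0.116). The cold shock domain genes GRP2 (36.8 and 30.7, then 19.9 and 18.2), CSP1 (3.75 and 3.63, then 1.65 and 1.60) and CSP3 (1.68 and 3.07, then 1.37 and 2.09) were likewise below their 1 d means.

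Genes of cell wall loosening and water transport were called in both directions. Of 28 XTH genes, which cut and rejoin xyloglucan, 11 fell (39.3%) and 4 rose (14.3%), with a median of -0.87, and 9 calls held. XTH31 went from 61.4 and 61.5 to 7.19 and 9.56 (-2.89 ± 0.24, adjusted p = 1.77e-05), XTH20 from 78.3 and 79.1 to 21.1 and 17.6 (-2.03 ± 0.25) and XTH7 from 31.2 and 33.1 to 5.16 and 8.71 (-2.26 ± 0.26). XTH6 rose from 7.43 and 7.14 to 27.8 and 28.7 (1.95 ± 0.34) and held. XTH33 rose by 2.53 and XTH24 by 1.70, and neither held. Of 17 expansin genes, whose products loosen walls, 6 fell (35.3%) and 1 rose (5.88%) with a median of -0.45. EXPA16 fell from 17 and 17.5 to 6.63 and 8.56 (-1.2 ± 0.17), and EXPA8 rose from 2.15 and 2.46 to 7.49 and 6.96 (1.65 ± 0.34, adjusted p = 0.00632; 0.036 to 0.0691 with 1 library left out).

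Of 20 aquaporin genes 7 fell (35%) and 2 rose (10.0%), with a median of -0.51, and 6 held. The vacuolar TIP genes fell in 4 cases, with TIP1;1 at 94.8 and 96.3 and then 23.2 and 27 (-1.93 ± 0.19, adjusted p = 7.16e-05), TIP4;1 lower by 2.15 and TIP2;3 by 3.59 on the log2 scale beside TIP2;2 given above. PIP2;4, of the plasma membrane, fell from 27.7 and 26.6 to 8.46 and 9.44 (-1.60 ± 0.22). TIP2;1 instead rose from 89 and 85.6 to 197 and 192 (1.16 ± 0.37, adjusted p = 0.0464; 0.156 to 0.187 with 1 library left out), and PIP1;1 from 32.5 and 30 to 54.9 and 56.1 (0.83 ± 0.15, held).

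Of 11 root marker genes measured of 12 listed, 5 fell (45.5%) and 0 rose, with a median of -0.81. In the 4-library fit 7 were lower (63.6%) and 1 higher (9.09%). Of the 11 genes, 2 had a positive log2 change, up to 0.47. CASP1, of the Casparian strip, fell from 22.6 and 18.9 to 5.69 and 7.29 (-1.68 ± 0.24), the root-hair expansins EXPA18 (-2.48) and EXPA7 (-1.28) fell, and PYK10, a beta-glucosidase abundant in roots, fell from 1500.0 and 1620.0 to 589 and 594 (-1.40 ± 0.24). These 4 held, and COBL9, a root-hair gene, fell by 1.39 without holding (adjusted p = 0.00762; 0.0346 to 0.0687). The summed level of the 11 root markers was 1630.0 and 1752 after 1 d and 679 and 693 after 10 d, with none at 0. PYK10 alone gave 1500.0 and 1620.0 of these sums and then 589 and 594. The summed level of the 8 green-tissue markers was 6589 and 6274 and then 8476 and 8325, with none at 0, and of these 1 rose (LHCB1.1) and 2 fell (CA1 and RCA), with a median of -0.09. That sum rose by no more than LHCB1.1 alone, whose values are given above, and 5 of the 8 markers had a negative log2 change. Nitrate transporters, aquaporins, XTH genes and expansins include genes with root expression, and the part of a change in root share in their falls was not tested.

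Of 17 cell division genes measured, 3 fell (17.6%) and 0 rose with a median of -1.16, none held, and 16 had a negative log2 change. In the 4-library fit 15 were lower (88.2%) and 0 higher. TSO2, a ribonucleotide reductase subunit, fell from 40.2 and 38.7 to 14.3 and 12.9 (-1.54 ± 0.39, adjusted p = 0.017; 0.0852 to 0.111 with 1 library left out), PCNA1, the replication clamp, from 7.38 and 7.78 to 2.95 and 3.40 (-1.26; 0.0558 to 0.102) and CDKB1;1, a mitotic kinase, from 3.75 and 3.99 to 1.60 and 1.68 (-1.23; 0.0326 to 0.0639). KN, the cytokinesis syntaxin, was at 12.2 and 9.17 and then at 3.05 and 3.02 and was not called (adjusted p = 0.0822). Of 21 histone genes 5 fell (23.8%) and 1 rose (4.76%), with a median of -0.57. HTA3 and HTA10, of the H2A family, fell by 1.59 and 1.34 and held, and HTA9, an H2A.Z gene, rose from 39.9 and 36.8 to 77.2 and 72 (0.96 ± 0.30, adjusted p = 0.0406; 0.141 to 0.19).

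Ribosomal protein genes found by symbol, which include plastid and mitochondrial ones, gave 3 rises (6.82%) and 1 fall (2.27%) among 44, with a median of 0.04. RPS18A rose from 63.9 and 63 to 106 and 109 (0.76 ± 0.14) and RPL3B fell from 17.4 and 14.8 to 5.99 and 6.42 (-1.37 ± 0.21), and both held. Among the 44, 18 were higher (40.9%) and 6 lower (13.6%) in the 4-library fit. Auxin-responsive genes of the IAA and SAUR families gave 6 rises (10.9%) and 3 falls (5.46%) among 55 measured of 109 listed, with a median of 0.10. SAUR6 fell from 8.13 and 8.61 to 1.02 and 0.98 (-3.05 ± 0.45) and was the only one of them that held. SAUR15 rose from 0.2 and 0.332 to 2.13 and 1.52 (2.76 ± 0.64, adjusted p = 0.0108; 0.0279 to 0.114 with 1 library left out).

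Among heat shock and chaperone genes 6 fell (17.6%) and 3 rose (8.82%) of 34 measured, with a median of -0.20. HSP81-3, a cytosolic HSP90, fell from 187 and 197 to 47.8 and 42.4 (-2.09 ± 0.29, adjusted p = 0.000495), and the HSP70 gene HSC70-1 from 1604 and 1626 to 682 and 701 (-1.22 ± 0.19). HSP70 (AT3G12580), a heat-inducible member, fell from 18.2 and 19.2 to 1.62 and 1.70 (-3.48 ± 0.91) without holding (adjusted p = 0.0196; 0.0624 to 0.124 with 1 library left out). HSFA6A, a heat shock factor gene, had 0 reads in both libraries after 1 d and 39 and 29 reads after 10 d, at least 11.0-fold higher against a floor of 3 reads per library, and its call held. The HSP90 genes are close copies, so the division of reads among them is uncertain.

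Of 8 genes linked to low oxygen 5 fell (62.5%) and 1 rose (12.5%), with a median of -0.81. AT4G33070 fell from 129 and 157 to 18.6 and 19.3 (-2.91 ± 0.20, adjusted p = 6.62e-06), PDC2, a pyruvate decarboxylase, from 44.3 and 49.6 to 19.1 and 21.4 (-1.21 ± 0.20) and AOX1A, the alternative oxidase of mitochondria, from 23.7 and 27.8 to 7.69 and 6.06 (-1.91 ± 0.22). The sucrose synthase gene SUS4 rose from 1.70 and 2.16 to 8 and 6.73 (1.94 ± 0.41, adjusted p = 0.00682; 0.0312 to 0.0783 with 1 library left out). ADH1, alcohol dehydrogenase, stayed uncalled at 202 and 220 and then 162 and 145 (adjusted p = 0.127), with a deposited mean of 1.03 without cold.

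Of 21 jasmonate genes 4 fell (19.1%) and 0 rose, with a median of -0.03, and VSP1, a jasmonate-induced storage protein, fell from 11.8 and 13 to 0.762 and 0.876 (-3.90 ± 0.66, adjusted p = 0.00183) and held. AOC2 of jasmonate synthesis, the repressor gene JAZ1 and VSP2 fell by 1.61, 1.06 and 5.61 without holding. Of 12 salicylate genes 2 rose and 2 fell (16.7% each), with a median of 0.55. EDS5, the transporter that exports the salicylate precursor from chloroplasts, fell from 9.23 and 7.56 to 1.24 and 1.26 (-2.73 ± 0.51) and held, while the regulators WRKY70 and CBP60G rose by 1.74 and 1.75 and PR5 fell by 1.82, none of which held. Of 13 abscisic acid genes 3 fell (23.1%) and 1 rose (7.69%), with a median of -0.55. CYP707A1, which breaks abscisic acid down, fell from 26.1 and 30.9 to 8.13 and 8.15 (-1.80 ± 0.23) and held, and NCED3, the key enzyme of its synthesis, fell by 1.44 (adjusted p = 0.0486; 0.162 to 0.198). Of 13 gibberellin genes 1 rose and 1 fell (7.69% each): RGL3, a DELLA repressor, rose by 1.04 and GA2OX6, a gibberellin-inactivating oxidase, fell by 1.35, neither held, and the median was 0.05.

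The 4 touch genes did not move as 1 group. TCH4, which is also XTH22, rose from 1.58 and 2.33 to 12.7 and 10.8 (2.62 ± 0.83, adjusted p = 0.0451; 0.111 to 0.215 with 1 library left out), and TCH3, a calmodulin-like gene, from 4.75 and 5.43 to 13.6 and 11.6 (1.31 ± 0.32; 0.053 to 0.109). CAM2, a calmodulin next to TCH3, fell from 20.6 and 22 to 10.1 and 10.6 (-1.04 ± 0.24; 0.0553 to 0.0837), and TCH2 was at 3.85 and 3.90 and then at 2.11 and 2.42 (adjusted p = 0.504). The median of these genes was 0.26. Of 9 calmodulin-like genes 1 rose and 1 fell (11.1% each), TCH3 as above and CML11 by 1.2, neither held, and the median was -0.78.

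Of 19 vernalization genes measured, 2 rose (10.5%) and 0 fell over this interval, with a median of 0.32, and neither held. The 4-library fit gave 8 higher (42.1%) and 2 lower (10.5%). FLC, the repressor silenced by long cold, was at 19.1 and 20.9 after 1 d and at 25 and 27.6 after 10 d, so the groups did not overlap, but its log2 change of 0.40 ± 0.17 was not called across 14 libraries (adjusted p = 0.116) and was called in the 4-library fit (0.00242). Its deposited means were 17.3 without cold, 19.5 after 20 d, 8.38 after 40 d and 5.53 after the return, so its 10 d mean of 26.3 was above that without cold. VIN3, the cold-induced partner of Polycomb at FLC, was at 0.05 and 0.332 and then at 1.40 and 0.876 (2.97 ± 1.00, adjusted p = 0.058; 0.00203 in the 4-library fit), with means of 1.72 after 20 d and 4.53 after 40 d. The 2 rises were MAF3, a close relative of FLC, from 7.41 and 5.48 to 11.5 and 11.3 (0.83 ± 0.18, adjusted p = 0.00833; 0.0199 to 0.106 with 1 library left out), and SWN, a Polycomb methyltransferase, from 5.96 and 7.31 to 13.9 and 12.6 (1.01 ± 0.26; 0.0676 to 0.152). The MAF genes are tandem copies of FLC-like sequence, and their counts may share reads.

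None of 9 floral integrator genes was called across 14 libraries, where 1 was higher and 0 lower at an unadjusted p under 0.05. The trend fit on log2 values called 0 and the 4-library fit called 4 higher, and the median was 0.28. SOC1, a flowering activator repressed by FLC, was at 3.03 and 1.72 and then at 2.46 and 4, so that the groups overlapped (log2 change 0.44 ± 0.38, adjusted p = 0.455). Its deposited mean was 0.259 without cold, 9.34 after 40 d and 12.2 after the return.

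Of 24 clock genes 2 rose (8.33%) and 0 fell, with a median of 0.19. PRR7, a repressor of the morning loop, rose from 19.3 and 17.1 to 36.9 and 39 (1.06 ± 0.23, adjusted p = 0.00782; 0.0439 to 0.0748 with 1 library left out), and RVE4, an activator of evening genes, from 40.1 and 39.8 to 63.1 and 65.7 (0.69 ± 0.16; 0.0716 to 0.0885). CCA1, the morning regulator, was at 95.7 and 107 and then at 87.6 and 82.6 (-0.25 ± 0.23, adjusted p = 0.481), and GI, an evening gene, at 134 and 150 and then at 195 and 191 (0.44, adjusted p = 0.162). The deposited means of CCA1 without cold and after 1 h were 6.4 and 5.63, against 101 after 1 d and 85.1 after 10 d. A part of a difference in harvest hour in the comparison of 1 d with 10 d was not tested. The 4-library fit gave 8 higher (33.3%) and 6 lower (25.0%) among the clock genes.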

How the data were processed

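RNA of 14 samples in 7 groups was analysed, of which 4 samples carry the comparison of 10 d with 1 d of cold. The authors deposited 1 table of normalised signal per gene (normalised counts averaged over 2 libraries per group), and per the submitters' processing notes TopHat, edgeR and the TAIR10 build were used, with no versions or settings given. At a relative tolerance of 1e-12, 99.95% to 99.98% of values in a column had 1 solution as whole reads of a deeper and a shallower library; 3 nuclear genes did not. Which replicate number each library has is not carried by the columns. Reads per library were tested with limma 3.58.1 (voom) in R 4.3.3 over 18766 genes, organelle genes included, with group as the only term, the library sizes behind the authors' scaling and Benjamini-Hochberg adjustment at 0.05. Where 1 library was left out, the lone library was assumed to vary like the other groups.

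Named genes were the 12 largest rises and 12 largest falls that held without any 1 library and reached 10 normalised counts in the higher group, up to 4 called members per direction of each of 34 gene lists by adjusted p, FLC, VIN3, SOC1, COR15A, CBF2 and CCA1, and all members of lists of 5 or fewer; other list members are named with their values. The lists and these rules were chosen with earlier results of these data known. From lists built by symbol, 10 false name matches were removed. Symbols came from a RefSeq table (assembly TAIR10.1), which 18610 nuclear identifiers matched. On simulated data for this comparison (18766 genes, 200 of them changed) the fit found 24% of 2-fold and 100% of 4-fold changes with 0 false calls. The changed genes there were drawn only from those above a minimum of expected reads, and all genes of a group shared the same dispersion. These shares therefore do not cover genes with few reads or with a wider spread between libraries. Alternatives covered the samples in the fit, scaling, filters, weights, pseudocounts and left-out libraries. Reads are not independent molecules, and floors of 3 reads cover counting error only. Peaks of chromatin marks and promoter sequences were not used here.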

Additional observations from a re-analysis of the deposited data

How the results depend on the processing

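Against 1377 rises and 2086 falls, the fit of the 4 libraries alone gave 4314 and 4768, and quality weights per group gave 4157 and 4615. Without 1 library, 345 to 425 genes rose and 740 to 1007 fell. Counting only genes at least 2-fold apart between the deposited means, with no test, gave 455 higher (2.44% of 18622) and 1082 lower (5.81%) on log2(value + 1), 655 higher with 0.5 added, and 310 higher and 762 lower with 2 added. The same count gave 381 and 808 where the higher mean had to reach 5, and 455 and 1082 with no minimum. Total reads as library size (1136 and 1459), median-of-ratios scaling (1251 and 2231), a filter of 10 reads (1382 and 2093), trend fits on log2 values (954 to 957 and 1610 to 1684) and the table without organelle genes and AT2G01021 (1636 and 1605) stayed within 1.5 times. That last setting moved the median change of all genes from 0.01 to 0.10 on the log2 scale.

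Of 244 genes given these settings, 232 were called and 111 of them held without any 1 library. None of the 232 called genes changed direction in any setting. Between 96 and 115 calls were lost without 1 library, 46 with total reads, 6 with median-of-ratios scaling, 43 or 44 with the trend fits and 27 without organelle genes. No paired analysis was possible because the averaged columns carry no replicate numbers. The planned descriptions of promoter motifs and of chromatin marks were not run, since no promoter table or gene annotation of the build was used here. With 2 libraries a group, an uncalled gene is not shown to be unchanged. Simulated 2-fold changes were mostly missed, though fewer genes changed in that simulation than were called in the data.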

Other observations

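Genes of branched-chain amino acid breakdown, were put together after their values were seen, so their count supports nothing beyond itself. Of 12 measured, 8 rose (66.7%, against 7.40% of all tested genes) and 0 fell, with a median log2 change of 1.73, and 4 held without any 1 library. IVD, the isovaleryl-CoA dehydrogenase, went from 16 and 12.4 to 81.4 and 76.7 (2.49 ± 0.23, limma adjusted p = 4.12e-05), MCCA, a subunit of methylcrotonyl-CoA carboxylase, from 4.08 and 3.57 to 27.5 and 25.2 (2.78 ± 0.39) and its partner MCCB from 6.96 and 5.76 to 21 and 19.4 (1.67 ± 0.21). BCE2, of the branched-chain dehydrogenase complex, rose from 4.98 and 5.98 to 35.1 and 34.4 (2.67 ± 0.37). AT1G21400 rose by 2.06 and BCDH BETA1 by 1.40 without holding, like DIN4 and BCAT2, which the sugar starvation list also holds. CHY1 (0.74), ETFQO (0.36), D2HGDH (0.52) and mtLPD2 (-0.49) were not called.

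Runs of at least 4 neighbouring measured genes called in the same direction numbered 9, and all 9 were falls. Over all tested genes falls were also the more frequent call, at 11.2% against 7.40% rises. How many runs these shares alone would give was not tested. The run that starts at NAC084 had 0 genes that held. A run on chromosome 5 holds the thalianol pathway, a root triterpene cluster: THAS1, the thalianol synthase, fell from 64.2 and 63.3 to 7.44 and 7.58 (-3.08 ± 0.31), CYP708A2 from 23.7 and 24.9 to 2.82 and 3.58 (-2.93 ± 0.28), CYP705A5 from 39.9 and 33.5 to 1.91 and 1.5, and AT5G47980 from 5.91 and 6.73 to 0.152 and 0.438. All 4 held. Another run held AT5G42570 beside the marneral cluster genes CYP705A12, CYP71A16 and MRN1. MRN1, the marneral synthase, had 20 and 16 reads after 1 d and 0 after 10 d, at least 6.15-fold lower against a floor of 3 reads per library. Of these 4 only AT5G42570 held, and none of the marneral cluster genes did. A further run of AT5G36130, CYP716A2, PEN3 and AT5G36160 included CYP716A2 at 14.4 and 17.7 and then 0.914 and 0.851 (-4.15 ± 0.52), and CYP716A2 and PEN3 held among its 4 genes. Of 11 root marker genes 5 fell (45.5%) in the same samples. Their summed levels, made up mostly of PYK10, were 1630.0 and 1752 and then 679 and 693. The part of root markers in the falls of these runs was not tested.

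By class of gene, 1344 of 18206 protein-coding genes rose and 2072 fell. Of 36 long noncoding RNA genes 4 rose and 1 fell (median 0.56), of 83 other noncoding RNA genes 9 rose and 3 fell (0.35), and of 52 snoRNA genes 0 rose and 3 fell (-0.87). Over all tested genes 7.40% rose and 11.2% fell. The counts of these small classes were not tested against those shares.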
